A study of Mus musculus with 15 samples.

Results

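The mRNA of 10 transcription factors of effector CD8+ T cells were followed: Tbx21, Eomes, Prdm1, Irf4, Irf8, Batf, Batf3, Id2, Zeb2 and Runx3. They were chosen by gene symbol, and all 10 were found among the 11262 mRNA of the table of naïve and activated cells and among the 11211 mRNA of the table of cytotoxic T lymphocytes (CTL), out of 11836 mRNA listed in either table. All libraries came from P14 mice, whose transgenic TCR recognises the peptide gp33–41 of lymphocytic choriomeningitis virus. RNA was measured by sequencing in 15 libraries, 3 biological replicates in each of 5 groups, and deposited as FPKM, fragments counted per length of exon and scaled to the size of the library.

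The naïve cells were sorted directly from lymph nodes as CD8+ cells with high CD62L and low CD44. TCR activated cells received gp33–41 at 100 ng/ml for 24 h together with the cytokines IL-12 at 2 ng/ml and IL-2 at 20 ng/ml. A further group received the same activation together with 10 µM IC87114, an inhibitor of the PI3K subunit p110δ called PI3Kdi, and both activated groups were sorted as live CD8+ cells. Each replicate of these 3 groups was a pool of cells from 3 mice, female and aged 9 to 13 weeks, divided between the conditions. For CTL, P14 cells were activated for 48 h and cultured for 4 further days in 20 ng/ml IL-2. They were washed on day 6 and then kept for 24 h either in 20 ng/ml IL-2 or without it, so that both CTL groups had been grown in IL-2 before. The methods of the study describe P14 CTL made from lymph nodes or spleens of 3 mice for 3 replicates, and female mice of 9 to 13 weeks for unstimulated and restimulated CTL, but with a longer culture in IL-2 than the labels give here. Whether this holds for the CTL kept with or without IL-2, and whether these were sorted, is not stated. The treatment labels of replicates 2 and 3 of the CTL in IL-2 name other interleukins, and these libraries were grouped by their titles.

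Effector differentiation of CD8+ T cells is directed by factors that are induced by antigen receptor signals and tuned by cytokines. The T-box factors T-bet (Tbx21) and EOMES (Eomes) drive cytotoxic and interferon γ genes, and BLIMP1 (Prdm1) and ZEB2 (Zeb2) are transcriptional repressors that promote terminal effector differentiation. IRF4 and IRF8 act on composite DNA sites with BATF family proteins such as BATF and BATF3, ID2 blocks E proteins, and RUNX3 maintains the CD8 lineage and cytotoxic programme. IL-2 signals through JAK kinases and STAT5, which binds DNA motifs of the kind TTCNNNGAA.

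Irf8 and Eomes were the members that fell by more than 2-fold in CTL without IL-2, and the bases before their start sites are shown for that reason. The sequences are from RefSeq on GRCm38.p6 (mm10), the 250 bases before an annotated start, and capitals mark matches on either strand to the motifs searched. In Irf8, at chr8:120736108-120736357 on the plus strand, capitals mark a pair of matches to TTCNNNGAA, the STAT motif, at positions -171 to -163 and -153 to -145 from the start. In Eomes, at chr9:118477939-118478188 on the plus strand, they mark an IRF motif, GAAA repeated after a gap of 2 bases, at -154 to -145.
Irf8: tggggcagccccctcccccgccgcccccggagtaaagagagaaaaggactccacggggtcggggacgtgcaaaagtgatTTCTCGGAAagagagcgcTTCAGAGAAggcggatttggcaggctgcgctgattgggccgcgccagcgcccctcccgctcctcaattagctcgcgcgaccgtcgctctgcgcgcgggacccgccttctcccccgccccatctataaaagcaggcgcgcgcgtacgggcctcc
Eomes: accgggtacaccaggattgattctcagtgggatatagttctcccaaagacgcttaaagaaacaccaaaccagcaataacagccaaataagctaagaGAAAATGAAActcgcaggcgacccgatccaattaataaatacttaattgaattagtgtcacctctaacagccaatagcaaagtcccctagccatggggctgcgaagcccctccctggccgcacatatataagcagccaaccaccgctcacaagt

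All 10 members had such a window, 15 windows in all because some genes have several annotated starts. The STAT motif was found in 7.02% of 32851 windows of all genes and in 4 of the 15 member windows. These belong to Irf8, to Batf3 at -239 to -231 and to Zeb2, where 2 overlapping windows hold the same match. A further Irf8 window, at chr8:120738389-120738638, is not printed and held no STAT match. The IRF motif was in 2.98% of all windows and in Eomes alone among the members. The AP-1 motif TGANTCA was in 6.75% of all windows and in Prdm1 and Zeb2, and the FOXO motif GTAAACA in 3.17% and in Prdm1. The ZEB motif CAGGTG was in 17.2% and in Irf8, Prdm1, Runx3 and Tbx21. In Irf8 the ZEB match lies in the window not printed, at -205 to -200. The motifs were picked after the values of the members had been seen. Such matches describe letters in a window, and binding was not measured.

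Removing IL-2 from CTL for 24 h lowered 2 of the 10 factors by more than 2-fold, Irf8 and Eomes, and raised 0. Id2 was lower and Tbx21 higher by less than 2-fold. The other 6 members, Prdm1, Irf4, Batf, Batf3, Zeb2 and Runx3, did not pass the test. A change was called when limma, fitted on log2(FPKM + 0.1) with Benjamini-Hochberg adjustment over the whole table, gave an adjusted p under 0.05 and the fold was above 2 or below 0.5. By this rule 28.2% of all mRNA of the CTL table changed, 14.3% being higher and 13.9% lower, so a count of 2 of 10 is close to the share over all mRNA. Without the fold limit, 4 members passed in this unpaired fit, against 71.9% of all mRNA. With the replicate number as a block, Irf4 and Runx3 also had a limma adjusted p under 0.05 (0.033 and 0.045). The median log2 fold change was -0.22 over the members and 0.00 over all mRNA of the table. Low bulk levels cannot tell fewer cells of a type from less RNA per cell.

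Irf8 (chromosome 8 of mm10, 120736358 to 120756694) showed the largest change of the members. It was at 95.97, 111.23 and 134.05 FPKM in CTL with IL-2 and at 8.95, 10.04 and 9.73 FPKM without IL-2, replicates 1 to 3 in order here and in what follows. Every library with IL-2 lay far above every library without it, and the libraries without IL-2 lay close together. The mean was 113.8 ± 19.2 FPKM against 9.57 ± 0.562 (SD, n = 3), an 11.7-fold fall on the log2(FPKM + 0.1) scale (log2 fold change -3.55, standard error 0.12, 95% interval -3.81 to -3.28, limma adjusted p = 7.9e-08). Among the 11211 mRNA ranked by mean FPKM, Irf8 went from rank 716 with IL-2 to rank 6193 without it. Leaving out each replicate in turn gave -3.61 to -3.43.

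Eomes (chromosome 9, 118478186 to 118486132) was at 75.78, 103.92 and 162.97 FPKM with IL-2 and at 9.97, 11.28 and 20.77 FPKM without. The groups did not overlap, and replicate 3 was the highest of its group in both conditions. The fall was 8.13-fold (log2 fold change -3.02, standard error 0.31, 95% interval -3.72 to -2.33, limma adjusted p = 1.9e-05), and within same-numbered libraries the level without IL-2 was 0.133, 0.109 and 0.128 of that with IL-2. The spread between replicates within a group was thus wider than the spread of the within-pair ratios. The gene model overlaps that of Gm33408, and whether counting used the strand is not stated.

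Tbx21 (chromosome 11, 97098007 to 97115331), the other T-box gene, moved the other way. It was at 15.18, 18.73 and 15.85 FPKM with IL-2 and at 33.06, 35.43 and 24.20 FPKM without. Every library without IL-2 was above every library with it. The log2 fold change was 0.88 (standard error 0.15, 95% interval 0.55 to 1.21, limma adjusted p = 0.00046), a rise of 1.84-fold that stayed under the fold limit except without replicate 3, where it was 1.02.

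Id2 (chromosome 12, 25093799 to 25096092) was the most abundant member in CTL. Its levels were 575.22, 693.12 and 835.31 FPKM with IL-2 and 379.07, 399.29 and 361.88 FPKM without. All 3 libraries with IL-2 were above all 3 without it, and the mean of 380.1 FPKM without IL-2 still ranked 163 among the mRNA of the table. The log2 fold change was -0.87 (standard error 0.13, 95% interval -1.16 to -0.58, limma adjusted p = 0.00021), and it was -1.0 without replicate 1.

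**Figure D1:**
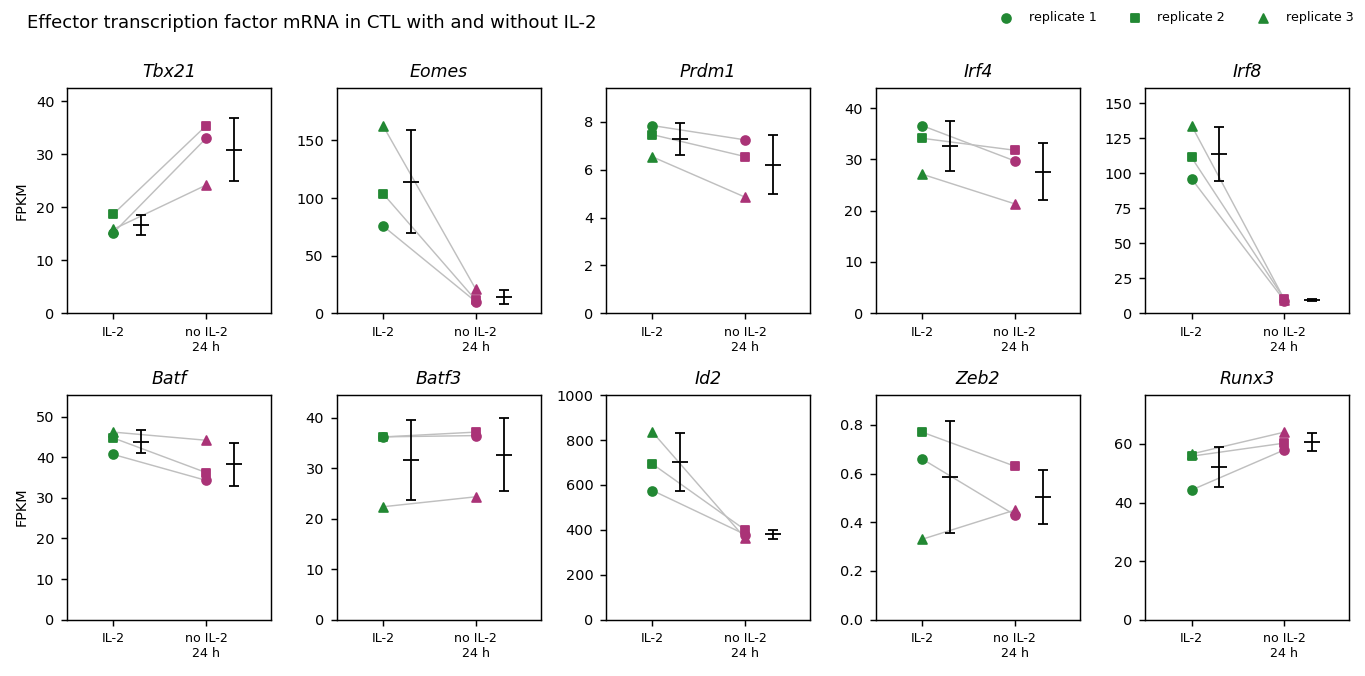
FPKM (vertical axis, from 0, a scale for each gene) of the 10 factors in CTL with IL-2 and after 24 h without IL-2. Points are libraries, grey lines join libraries with the same replicate number, and black bars give mean ± SD of 3. Irf8 and Eomes fell to means of 9.57 and 14.01 FPKM, Id2 fell to 380.1 FPKM, Tbx21 rose to 30.9 FPKM, and the groups of Prdm1, Irf4, Batf, Batf3 and Zeb2 overlapped.

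The remaining members gave smaller differences. For Prdm1, the levels of 7.85, 7.47 and 6.54 FPKM with IL-2 overlapped those of 7.25, 6.55 and 4.85 FPKM without it (log2 fold change -0.24, 95% interval -0.60 to 0.11, limma adjusted p = 0.19). Irf4 was at 36.62, 34.14 and 27.13 FPKM with IL-2 and at 29.71, 31.80 and 21.33 FPKM without, again with overlap (log2 fold change -0.25, 95% interval -0.61 to 0.11, limma adjusted p = 0.19). In each same-numbered pair both genes were lower without IL-2, and replicate 3 was the lowest library of each group. With the replicate number as a block the limma adjusted p was 0.033 for Irf4 and 0.096 for Prdm1.

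Batf, the partner of IRF4 at composite sites, was at 40.69, 44.75 and 46.20 FPKM with IL-2 and at 34.30, 36.22 and 44.19 FPKM without (log2 fold change -0.20, 95% interval -0.44 to 0.03, limma adjusted p = 0.11). Batf3, a smaller factor of the same family, was at 36.20, 36.18 and 22.36 FPKM with IL-2 and at 36.45, 37.14 and 24.33 FPKM without (log2 fold change 0.06, 95% interval -0.42 to 0.53, limma adjusted p = 0.82). Within same-numbered libraries the Batf3 ratios were 1.01, 1.03 and 1.09, so that replicate 3 was low in both conditions. The interval of the unpaired fit still allows a change of Batf3 of about 0.5 on the log2 scale in either direction.

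Zeb2 was the least abundant member, at 0.66, 0.77 and 0.33 FPKM with IL-2 and 0.43, 0.63 and 0.45 FPKM without (log2 fold change -0.14, 95% interval -0.82 to 0.54, limma adjusted p = 0.69). Its groups overlapped, and the interval is too wide to tell a moderate change in either direction from none. Runx3 was at 44.27, 55.81 and 56.56 FPKM with IL-2 and at 57.97, 60.28 and 64.03 FPKM without. The Runx3 groups did not overlap, but the difference was small (log2 fold change 0.23, 95% interval -0.01 to 0.46, limma adjusted p = 0.076, and 0.045 with the replicate block). In all, 5 members had groups that did not overlap, Tbx21, Runx3, Eomes, Irf8 and Id2, against 76.1% of all mRNA in the table.

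FPKM are per exon length, so levels of different members can be ranked within a group. In CTL with IL-2 the order of mean levels was Id2, Eomes, Irf8, Runx3, Batf, Irf4, Batf3, Tbx21, Prdm1 and Zeb2. The libraries of Eomes and Irf8 overlapped, as did those of Runx3 and Batf and those of Irf4 and Batf3, and these neighbours were not ordered beyond their spread. Without IL-2 the order was Id2, Runx3, Batf, Batf3, Tbx21, Irf4, Eomes, Irf8, Prdm1 and Zeb2. Eomes and Irf8 had moved below Tbx21 and Irf4. From Batf to Irf4 each neighbour overlapped the next, and Eomes and Irf8 overlapped as well.

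In the naïve and activated cells the same factors were first compared across TCR activation. Of the 10 members, 7 rose and 0 fell, against 48.7% of all mRNA that changed, 25% rising and 23.7% falling, and the median log2 fold change was 3.74 over the members and 0.01 over all mRNA. Eomes, Id2 and Runx3 did not pass the test. The comparisons of TCR activation with naïve cells and of PI3Kdi with TCR activation use the same TCR libraries, so each is given by its own values.

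Irf8, which in other settings is best known from myeloid and B cells, rose most among the members detected in all naïve libraries. It was at 1.17, 1.82 and 1.65 FPKM in naïve cells and at 378.06, 427.49 and 377.05 FPKM after 24 h of TCR activation. Every activated library was more than 100 times any naïve library (log2 fold change 7.92, standard error 0.16, limma adjusted p = 1.3e-11). With PI3Kdi it was at 211.33, 240.49 and 173.64 FPKM, below all libraries without the inhibitor and far above naïve (log2 fold change -0.93 against TCR alone, 95% interval -1.27 to -0.59, limma adjusted p = 0.0023). This was a fall of 1.90-fold, under the fold limit, and 52.7% of the rise of the mean over naïve cells was kept.

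The related factor Irf4 was at 1.55, 1.18 and 1.67 FPKM in naïve cells, at 295.48, 301.50 and 270.20 FPKM after activation and at 410.68, 459.21 and 404.89 FPKM with PI3Kdi. The 3 groups did not overlap, and the order of Irf4 and Irf8 differed between conditions. Irf8 was above Irf4 in each TCR activated library, and Irf4 was above Irf8 in each library with PI3Kdi. The difference of Irf4 with PI3Kdi was 0.55 on the log2 scale (95% interval 0.30 to 0.81, limma adjusted p = 0.0083), in the opposite direction to Irf8.

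Batf was already present in naïve cells, at 31.45, 30.58 and 34.14 FPKM, and rose to 115.37, 109.05 and 107.10 FPKM (log2 fold change 1.78, standard error 0.08, limma adjusted p = 4.1e-09). With PI3Kdi it was at 108.19, 103.87 and 93.10 FPKM, overlapping TCR alone (log2 fold change -0.12, 95% interval -0.30 to 0.06). Batf3 was blank in all 3 naïve libraries, which was taken as 0. It stood at 89.15, 55.56 and 65.00 FPKM after activation, so no fold is given. With PI3Kdi Batf3 was at 21.75, 13.10 and 22.63 FPKM. Here all libraries with the inhibitor were below all libraries without it, a fall of 3.67-fold (log2 fold change -1.87, standard error 0.22, limma adjusted p = 0.00026), and 27.4% of the rise was kept, against 88.8% for Batf.

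Zeb2 was at 0, 0.01 and 0 FPKM in naïve cells, each 0 being a blank taken as 0. It reached 1.86, 1.72 and 1.31 FPKM after activation. With PI3Kdi it was at 0.19, 0.16 and 0.13 FPKM. Zeb2 was thus a low-level mRNA in every group, near the rounding of the deposited values in naïve cells and with PI3Kdi, and 9.63% of its rise was kept. The fall with PI3Kdi was called with each pseudocount tried, but its size rested on it, with log2 fold changes of -2.73 at 0.1 (limma adjusted p = 2.3e-05), -1.18 at 1 and -3.27 at 0.01. Its gene model overlaps those of Mir5129 and Zeb2os, and whether counting used the strand is not stated.

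Runx3 was high throughout and varied between replicates, at 61.40, 49.17 and 78.79 FPKM in naïve cells, 59.32, 40.05 and 50.79 FPKM after activation and 42.53, 43.21 and 51.56 FPKM with PI3Kdi. All 3 groups overlapped. The log2 fold change was -0.33 for activation (95% interval -0.71 to 0.06, limma adjusted p = 0.11) and -0.12 for PI3Kdi (95% interval -0.50 to 0.27, limma adjusted p = 0.70). In CTL Runx3 lay in the same range of levels, although the tables were normalised separately and were not tested against each other.

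Tbx21 was at 1.51, 0.88 and 1.57 FPKM in naïve cells, 80.78, 83.06 and 95.43 FPKM after activation and 71.38, 66.22 and 73.65 FPKM with PI3Kdi. Libraries with the inhibitor were all below those without, yet the difference did not pass the test (log2 fold change -0.29, 95% interval -0.68 to 0.09, limma adjusted p = 0.29). Eomes was at 14.72, 12.95 and 15.82 FPKM in naïve cells, 12.44, 14.84 and 23.84 FPKM after activation and 4.03, 5.69 and 8.24 FPKM with PI3Kdi. The naïve and TCR activated libraries of Eomes overlapped, and those with PI3Kdi were lower than all of them. Its log2 fold change with PI3Kdi was -1.50 (95% interval -2.08 to -0.91, limma adjusted p = 0.0031), and without replicate 2 it was -1.56 with a limma adjusted p of 0.07.

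Prdm1 rose from 0.13, 0.12 and 0.30 FPKM in naïve cells to 4.61, 3.80 and 1.26 FPKM after activation, and was at 5.25, 3.10 and 2.47 FPKM with PI3Kdi. Both activated groups were above naïve and overlapped each other widely (log2 fold change with PI3Kdi 0.27, 95% interval -0.71 to 1.26, limma adjusted p = 0.72). Id2 was at 12.17, 15.04 and 12.32 FPKM in naïve cells, 13.07, 10.78 and 19.59 FPKM after activation and 37.10, 40.39 and 53.31 FPKM with PI3Kdi. Its level thus overlapped between naïve and TCR activated cells and was higher in every library with PI3Kdi (log2 fold change 1.61, standard error 0.20, limma adjusted p = 0.00039).

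**Figure D2:**
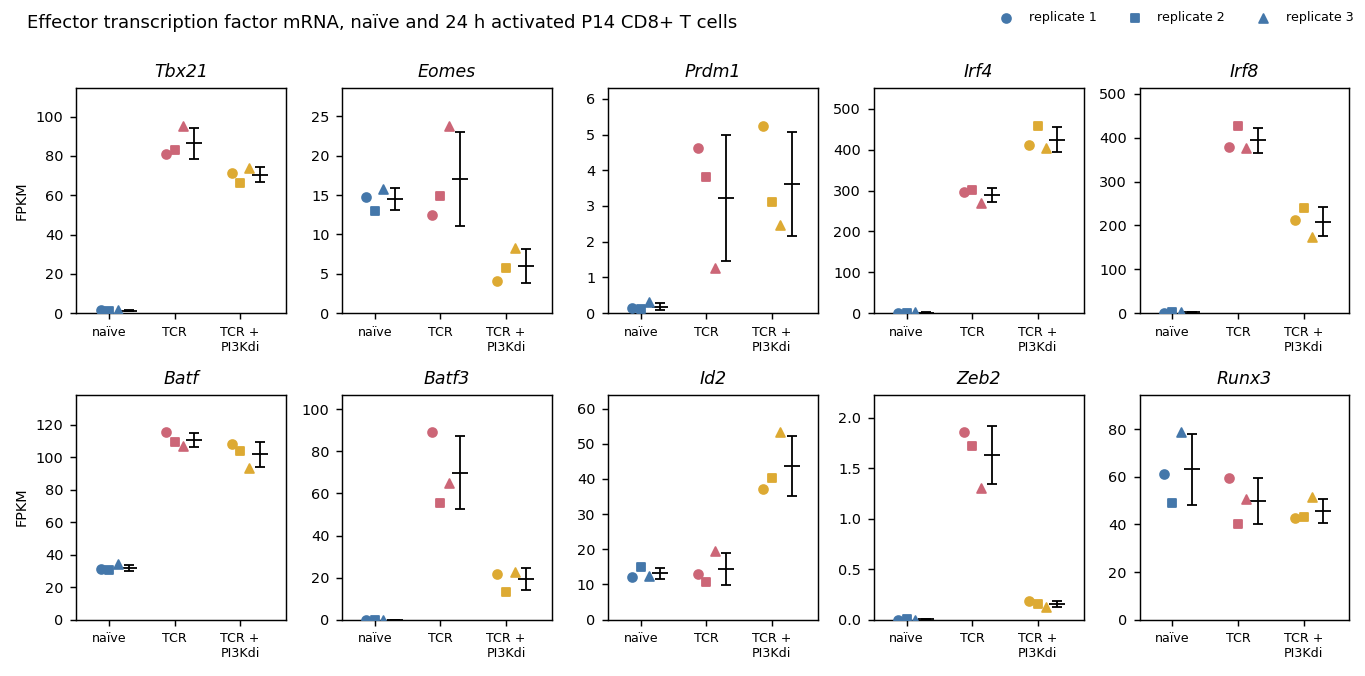
FPKM (vertical axis, from 0, a scale for each gene) of the 10 factors in naïve, TCR activated and TCR activated PI3Kdi treated P14 CD8+ T cells. Points are libraries by replicate number and black bars give mean ± SD of 3. Eomes, Batf3 and Zeb2 were lower with PI3Kdi than with TCR alone, at means of 5.99, 19.2 and 0.16 FPKM, and Id2 was higher, at 43.6 FPKM.

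With PI3Kdi, 4 of the 10 members changed against TCR activation alone, against 5.14% of all mRNA. The changed members were Id2, which was higher, as were 3.04% of all mRNA, and Eomes, Batf3 and Zeb2, which were lower, as were 2.1%. Without the fold limit 6 members passed, Irf4 and Irf8 being added, against 17.5% of all mRNA. In 7 members the groups did not overlap, against 36.7% of all mRNA, and the median log2 fold change was -0.21 over the members and -0.01 over all mRNA. Set against naïve cells, the PI3Kdi treated cells had 9 changed members, 8 higher and Eomes lower, against 45% of all mRNA, 23.6% higher and 21.3% lower. Eomes was lower than naïve by 1.32 on the log2 scale with PI3Kdi (log2 fold change -1.32, limma adjusted p = 0.00075), while with TCR alone the 95% interval of its difference from naïve was -0.40 to 0.76.

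**Figure D3:**
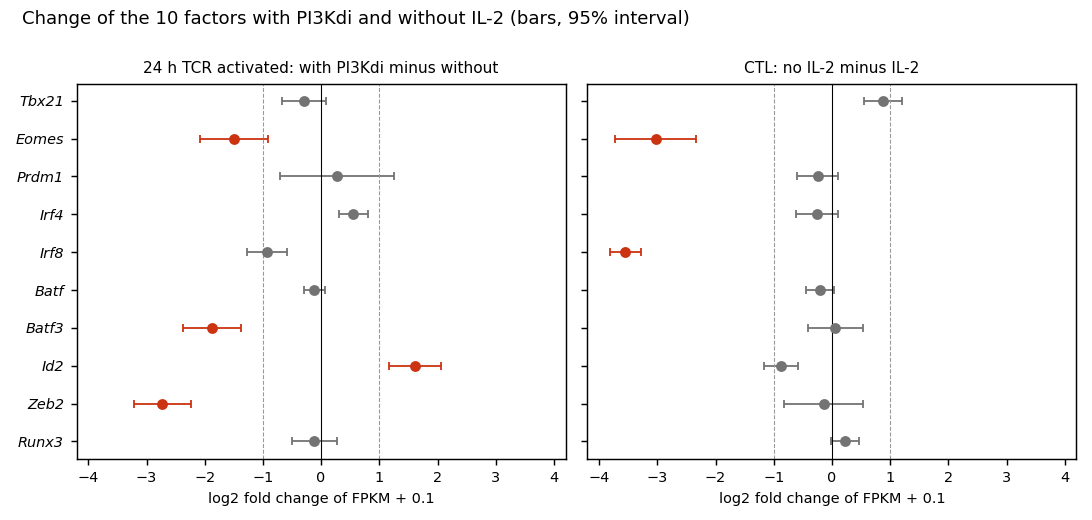
Log2 fold change of FPKM + 0.1 (horizontal axis) of each factor with PI3Kdi against TCR activation alone (left) and in CTL without IL-2 against with IL-2 (right). Bars are 95% intervals from limma, red marks members past both limits, grey the others, and dashed lines mark 2-fold. Eomes lay on the lower side in both panels, at -1.50 and -3.02. Irf8 was at -0.93 and -3.55, and Batf3 and Zeb2 were past the limit with PI3Kdi and near 0 without IL-2.

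Several of these factors are balanced by a partner with the opposite or a related role, so their levels were also read as log2 ratios within each library. The ratios were Tbx21 to Eomes, Id2 to the related inhibitor Id3, Prdm1 to Bcl6, which repress each other, Zeb2 to Zeb1 and Batf to Bach2, a repressor that competes for AP-1 sites. The test was an exact permutation of 3 against 3 libraries, two-sided, which cannot give a p under 0.1.

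The ratio of Tbx21 to Eomes changed sign without IL-2. In CTL with IL-2 the log2 ratio was -2.31, -2.47 and -3.35, and without IL-2 it was 1.72, 1.64 and 0.22. Eomes was thus the more abundant mRNA in every CTL library with IL-2 and Tbx21 in every library without it. The difference of the means was 3.90 (exact permutation p = 0.1, the smallest possible with 3 against 3). In naïve cells the mean log2 ratio was -3.40, with TCR activation 2.39 and with PI3Kdi 3.59. Tbx21 exceeded Eomes in all 6 activated libraries and Eomes exceeded Tbx21 in all 3 naïve libraries.

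Bcl6 and Bach2, both repressors that hold back effector differentiation, rose without IL-2, while Prdm1 and Batf did not pass the test. Bcl6 was at 0.26, 0.40 and 0.52 FPKM with IL-2 and at 5.04, 5.57 and 8.47 FPKM without (log2 fold change 3.71, limma adjusted p = 1.8e-06). The log2 ratio of Prdm1 to Bcl6 accordingly went from a mean of 3.94 to -0.02, with no overlap (exact permutation p = 0.1, the smallest possible). As Bcl6 was low with IL-2, its fold and this ratio depend in part on the pseudocount. Bach2 was at 0.88, 0.78 and 1.15 FPKM with IL-2 and at 8.15, 9.17 and 13.14 FPKM without (log2 fold change 3.29, limma adjusted p = 1.1e-06). The log2 ratio of Batf to Bach2 went from a mean of 5.42 to 1.92 (exact permutation p = 0.1, the smallest possible).

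Id3 was at 16.91, 16.39 and 15.15 FPKM with IL-2 and at 24.92, 23.34 and 23.42 FPKM without, and the log2 ratio of Id2 to Id3 fell from a mean of 5.42 to 3.99 without overlap (exact permutation p = 0.1). In the other table this ratio was -2.94 in naïve cells, -1.47 after activation and -0.22 with PI3Kdi. Id3 was above Id2 in all naïve and TCR activated libraries and below it in all CTL libraries. Zeb1 exceeded Zeb2 in all 15 libraries, and the ratio of Zeb2 to Zeb1 in CTL differed by 0.20 (exact permutation p = 0.7), within the replicate spread. With PI3Kdi the log2 ratio of Zeb2 to Zeb1 was -5.38 against -2.84 with TCR alone, and that of Batf to Bach2 was 2.04 against 2.90, both without overlap. For IL-2 withdrawal and for PI3Kdi, 4 of the 5 ratios did not overlap between groups, where single mRNA did not overlap in 76.1% and 36.7% of all cases.

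**Figure D4:**
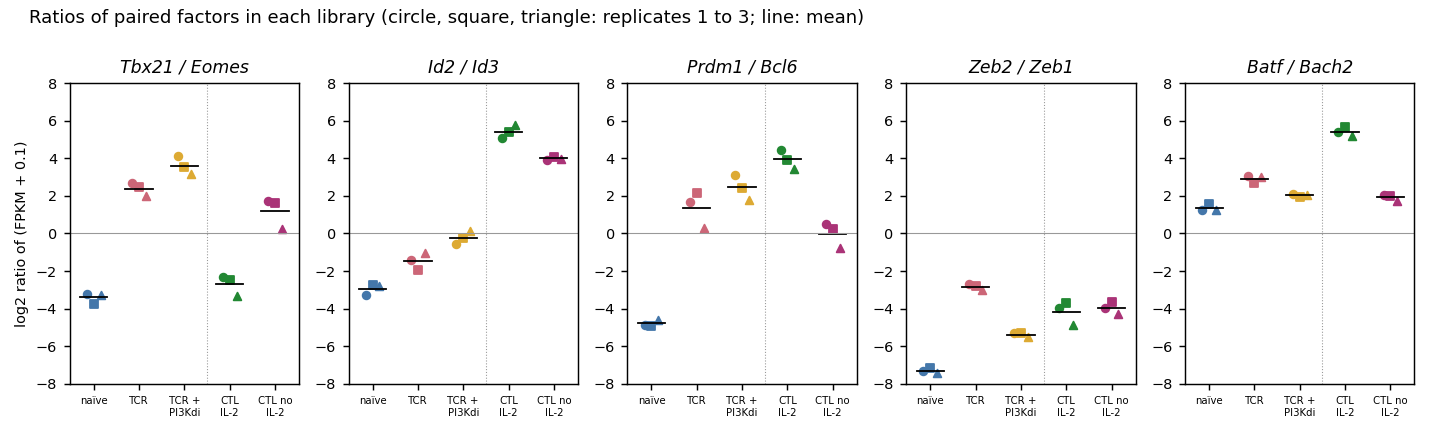
Log2 ratio of FPKM + 0.1 (vertical axis) of 5 pairs of factors in each of the 15 libraries, with the mean of each group as a line. The dotted line separates the tables, which were normalised separately. Tbx21 to Eomes lay below 0 in naïve cells and CTL with IL-2 and above 0 in the other 3 groups, and Prdm1 to Bcl6 fell from a mean of 3.94 to -0.02 without IL-2.

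Lists of genes around the members were counted by the same rule. The IL-2 and STAT5 response list served to check the CTL labels: 8 of its 14 genes fell without IL-2 and 0 rose, with a median log2 fold change of -1.58 against 0.00 over all mRNA. Cish, a STAT5 target that dampens IL-2 signalling, was at 199.40, 242.25 and 217.81 FPKM with IL-2 and at 20.69, 21.48 and 16.27 FPKM without. The libraries of replicates 2 and 3, whose treatment labels name other interleukins, were thus no lower in Cish than replicate 1. Such levels do not show which interleukin these libraries had received. Lta, encoding lymphotoxin α, fell by 4.32 and the cytokine gene Osm by 2.61 on the log2 scale.

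Of 11 opposing and memory factors, 7 rose without IL-2 and 0 fell, with a median log2 fold change of 1.43. Tcf7, which encodes TCF1 of memory and stem-like T cells, was at 15.63, 20.07 and 10.30 FPKM with IL-2 and at 563.91, 523.09 and 709.97 FPKM without (log2 fold change 5.32). The quiescence factor Klf2 was next, with a log2 fold change of 3.76. With PI3Kdi, 1 of the 11 rose, Klf2, and 0 fell, and after TCR activation 6 fell and 0 rose.

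**Figure D5:**
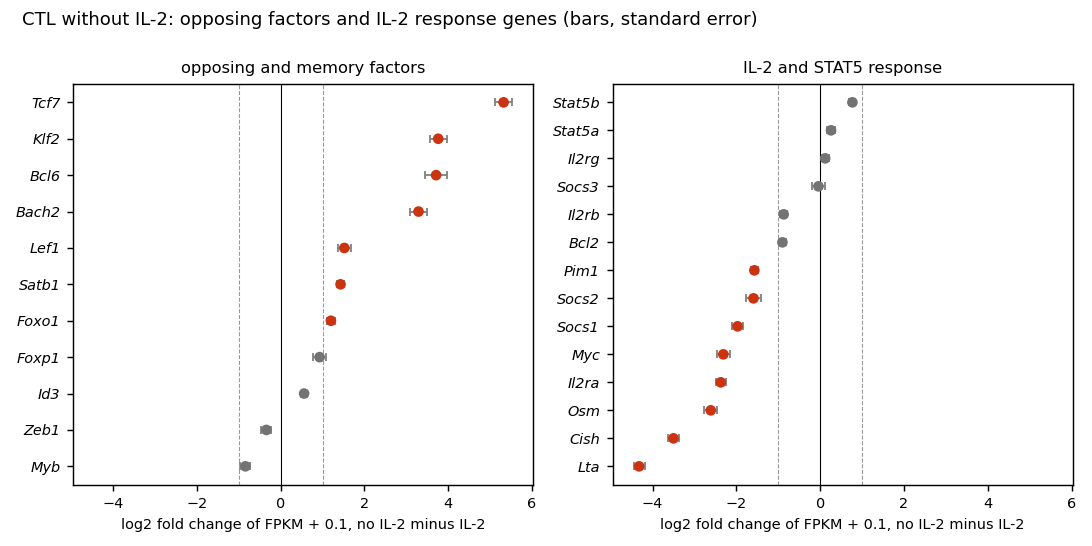
Log2 fold change of FPKM + 0.1 in CTL without IL-2 against with IL-2 (horizontal axis) for the 11 opposing and memory factors (left) and the 14 IL-2 and STAT5 response genes (right). Bars are standard errors from limma, red marks genes past both limits and dashed lines mark 2-fold. On the left 7 genes are higher and 0 lower, and on the right 8 are lower and 0 higher.

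Relatives of the members were counted too. Of 8 other IRF family genes and IRF binding partners measured in CTL, 0 fell and 1 rose, Irf9, with a log2 fold change of 1.12. Of 11 AP-1 genes and BATF partners, 6 fell and 2 rose. The falls with the largest fold were in Fosl1 (-4.89), Fos (-3.29) and Mafg (-2.01), and the rises were in Bach2 (3.29) and Bach1 (1.30), all log2 fold changes. Fosl1 was near 0 without IL-2, at 0, 0.05 and 0.12 FPKM, so that its fold rests on the pseudocount. The same holds for Fos, at 0.16, 0.12 and 0.19 FPKM without IL-2. In the list of ID and E proteins 1 of 5 fell, Id1 (-4.03), and in the RUNX and CBF list 0 of 5 passed in either direction. Id1 was at 0.45, 0.28 and 0.56 FPKM without IL-2, so its fold depends in part on the pseudocount. The same lists with PI3Kdi gave 1 fall of 9 in the IRF list (Irf5, -1.65), 2 rises of 12 among AP-1 genes (Maf, 2.27, and Bach1, 1.08), 1 fall of 4 in the RUNX list (Runx2, -1.80) and 0 of 4 in the ID list.

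Effector genes, several of them known targets of the members, moved in both directions without IL-2, 7 higher and 7 lower of 19. Gzmb, which encodes granzyme B, was at 8739.65, 10435.93 and 11655.01 FPKM with IL-2 and at 499.05, 507.26 and 276.50 FPKM without (log2 fold change -4.63). Ifng and the perforin gene Prf1 had log2 fold changes of -4.63 and -4.51. The rises with the largest fold were in the chemokine gene Ccl5 (4.36), the integrin gene Itgae (3.25) and the IL-7 receptor gene Il7r (3.23). Of 21 other effector factors, 6 rose, led by Ikzf2 (2.96), Rora (2.41) and Ikzf3 (2.14), and 4 fell, led by Zbtb32 (-3.24), Nr4a3 (-1.77) and Bhlhe40 (-1.31). Ikzf2 was at 0.37, 0.31 and 0.18 FPKM with IL-2, and Nr4a3 at 0.65, 0.22 and 1.3 FPKM without. Their folds thus depend in part on the pseudocount. With PI3Kdi, 6 of 16 effector genes fell and 3 rose, and the largest falls were in Ifng (-6.08), Gzmb (-3.08) and Ccl3 (-2.83).

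Several members are also expressed by other cells of lymph nodes, Irf8 by B cells and dendritic cells, Batf3 by dendritic cells, and Zeb2 by dendritic cells, macrophages and NK cells. The 8 CD8 T cell markers were all measured, with a summed level of 4785 to 5198 FPKM in naïve cells, 1349 to 1535 with TCR, 1390 to 1559 with PI3Kdi, 2448 to 2784 in CTL with IL-2 and 3189 to 3353 without. Of the B cell markers, Cd79b was at 19.61 to 21.76 FPKM in naïve cells, 2.58 to 3.48 with TCR and 2.79 to 3.77 with PI3Kdi, and Cd79a at 0.81 to 2.76, 0.46 to 1.34 and 0.16 to 0.53 FPKM. Ms4a1 was at 0.22 to 0.91 FPKM in naïve cells, 0.48 to 0.95 with TCR and 0.04 to 0.11 with PI3Kdi. Cd22 was at 0.09 to 0.71, 0.29 to 0.7 and 0.02 to 0.05 FPKM. The naïve and TCR values of Cd79a, Ms4a1 and Cd22 overlapped, while Cd79b was lower in every TCR library than in any naïve library. Ms4a1 and Cd22 were lower with PI3Kdi, like Irf8, Batf3 and Zeb2 (log2 fold changes -2.34 and -2.18, limma adjusted p = 0.0025 and 0.0097), and their part in these differences was not tested.

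Of 6 dendritic cell markers, only Zbtb46 was in that table, at 0.05 to 0.1 FPKM in naïve cells, 0.48 to 0.64 with TCR and 0.07 to 0.16 with PI3Kdi, a course like that of Zeb2 and Batf3 whose part was not tested. In CTL only Itgax was listed, at 0.21 to 0.39 FPKM with IL-2 and 3.67 to 5.17 without. Of the B cell markers only Cd79b was listed in CTL, at 2.74 to 6.3 FPKM with IL-2 and 10.8 to 20.64 without, and of the macrophage markers only Itgam, at 0.2 to 0.39 and 3.89 to 4.46 FPKM. Which cells expressed these mRNA, and their part in the differences of the members between the CTL groups, was not tested. Of 4 NK cell markers 3 were listed in CTL, summing to 22.27 to 37.94 FPKM with IL-2 and 211.5 to 314.7 without, nearly all of it Klrd1, and only Klrd1 was listed in the other table, at 120.3 to 141.6 FPKM in naïve cells, 3.38 to 3.8 with TCR and 2.78 to 3.33 with PI3Kdi. Itgam was at 0.23 to 0.3 FPKM in naïve cells, 0 to 0.03 with TCR and 0.02 to 0.08 with PI3Kdi. Of 3 CD4 T cell markers 2 were listed in each table, Cd4 not being in the table of naïve and activated cells, where the sum was at most 1.48 FPKM, and in CTL they summed to 16.75 to 21.36 FPKM with IL-2 and 25.55 to 30.23 without, mostly Zbtb7b. In all, 0 of 5 erythroid markers were in either table.

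For each member, the mRNA whose course was most alike was sought among those with a mean of at least 1 FPKM, by the root mean square difference of log2(FPKM + 0.1) after centring each mRNA. Over the 6 CTL libraries the nearest to Irf8 were D8Ertd82e (0.12) and Tnf (0.13), to Eomes Upp1 (0.13) and Ppp2r2c (0.18), to Tbx21 Klf11 (0.08) and C78339 (0.10), and to Id2 Ccdc137 (0.05) and Ier3 (0.06). Over the 9 libraries of naïve and activated cells they were Bcat1 (0.29) and E2f8 (0.33) for Irf8, Runx2 (0.24) and Adora2a (0.29) for Eomes, Ube2c (0.47) and Lif (0.50) for Batf3, Sdc4 (0.31) and Serpine2 (0.38) for Zeb2, and Gm12250 (0.21) and Ctla2a (0.26) for Id2. The libraries share their normalisation within a table, and the search ran over 10063 and 10254 mRNA, so such values are a description.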

How the data were processed

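Expression was taken from 2 deposited tables, 9 libraries of naïve and activated cells and 6 of CTL. The authors deposited both as FPKM: reads (75 bp, paired) were aligned with STAR 2.5.2b to mm10, counted with Subread 1.5.1, kept or dropped by filterByExpr, scaled with the TMM factors of edgeR and divided by exon length. For the CTL table the same steps were assumed. The values carry 2 decimals, and a blank was taken as 0. Every 0 given for naïve and activated cells was such a blank, and the CTL values held no blanks. Read totals per library are not given in the sources used here, so the depth is unknown. Summed FPKM were 438119 to 488408 and 446551 to 502972 per library.

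Values were fitted as log2(FPKM + 0.1) with limma 3.58.1 in R 4.3.3, with an intensity trend, each table in a fit of its own, with Benjamini-Hochberg adjustment of the p-values over the whole table. The fits were tested on simulated data. The limma p-values set a difference of group means against the spread between these replicates, moderated over all mRNA. Ratios were compared by exact permutation tests. Python 3.11.15, pandas 2.3.3, numpy 2.4.6 and matplotlib 3.10.9 were used. Deviations from group means of same-numbered libraries correlated across mRNA at 0.203 to 0.506 for PI3Kdi and TCR and at 0.123 to 0.257 for the CTL groups, so these numbers were taken to pair libraries. For naïve and TCR activated cells the values were -0.181 to 0.226. The replicate number entered as a block in an alternative.

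All 10 members are named. From each list at most 3 changed genes per direction with the largest fold are named. The 2 most alike mRNA are named in CTL only for Irf8, Eomes, Tbx21 and Id2. In naïve and activated cells they are named only for Irf8, Eomes, Batf3, Zeb2 and Id2. Which of these genes, markers included, are shown by library was decided after seeing their values. The members, lists and motifs were chosen with earlier results of these data known. The alternatives were leaving out each replicate, the block, a pseudocount of 1 or 0.01, scaling by medians, a minimum mean FPKM of 1, a fit without the trend, a fit of the compared groups only and other fold limits, of which the fold limits over all mRNA were added after seeing the data. The B cell marker list is given without 1 of its genes, which is not reported here.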

Additional observations from a re-analysis of the deposited data

How the results depend on the processing

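Of 386 log2 fold changes of members recomputed under an alternative, 377 kept their direction and their side of the limits, and 31 of 40 results did so under every alternative run for them. All 100 recomputed differences of log2 ratios kept their direction. The reversals were in members near 0, when a replicate was left out: for activation, Eomes ranged from -0.02 to 0.39 and Id2 from -0.19 to 0.38, for PI3Kdi, Prdm1 from -0.05 to 0.55 and Runx3 from -0.23 to 0.07, and for IL-2 withdrawal, Zeb2 from -0.39 to 0.05. Leaving out a replicate also ended the call of Eomes with PI3Kdi (-1.56 to -1.44) and brought Tbx21 (0.76 to 1.02) and Id2 (-1.0 to -0.70) past 2-fold without IL-2. The cause was not tested. With a pseudocount of 1, Zeb2 with PI3Kdi against naïve had a log2 fold change of 0.21 and was no longer called.

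With a fold limit of 1.5, or with no fold limit, 4 members changed without IL-2 in place of 2. Over all mRNA, PI3Kdi changed 579, but 311 with a pseudocount of 1, 323 without replicate 2, 1120 at a fold limit of 1.5 and 1975 with no fold limit, and IL-2 withdrawal changed 3166, 5657 at 1.5 and 8056 with none. With no fold limit, activation changed 9096 in place of 5489 mRNA, and 8906 in place of 5063 with PI3Kdi. With the replicate number as a block, the pairing changed no call of a member: 7, 4, 9 and 2 members changed for activation, PI3Kdi, PI3Kdi against naïve and IL-2 withdrawal, and 5495, 591, 5071 and 3168 mRNA. A mean of at least 1 FPKM removed Zeb2. The 3 libraries per group, the rounding to 2 decimals and the unknown depth limit what can be said of Zeb2 and of differences under 2-fold.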
